A study of Mus musculus with 2 samples.

Results

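The nuclear-encoded genes of the mitochondrial respiratory chain and ATP synthase, called members below, were taken as all genes whose symbol begins with Nduf, Uqcr, Cox4i, Cox5, Cox6, Cox7, Cox8 or Atp5, together with Sdha, Sdhb, Sdhc, Sdhd and Cyc1. Of 17305 genes with a singly named probe set, 89 were members: 43 in complex I, 4 in complex II, 9 in complex III, 16 in complex IV and 17 in complex V. The prefixes also take in 7 complex I assembly factors (Ndufaf) and the supercomplex factor Cox7a2l, which leaves 81 structural subunits. The mean of both arrays was at or above the median level of all genes, 5.50 on the log2 scale, for 83 members, and 78 were in the brightest 25% of genes. Among the singly named genes, those with an mt- symbol numbered 0, so subunits encoded in mitochondria were not analysed here. Probe sets with several symbols or none were not searched for them.

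The respiratory chain and ATP synthase turn the oxidation of fuels into ATP. Complex I takes electrons from NADH and complex II from succinate, complex III passes them to cytochrome c, complex IV reduces oxygen, and ATP synthase, also called complex V, uses the proton gradient that builds up across the inner membrane. Most subunits are encoded in the nucleus and are described here, whereas a few catalytic subunits come from the mitochondrial genome. Colonocytes are known to draw much of their energy from the oxidation of butyrate made by gut bacteria, and small intestinal enterocytes from glutamine and glucose.

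The nuclear-encoded subunits were compared between a graft of mouse small intestinal epithelium on the colon and normal colonic epithelium. The graft came from EGFP-transgenic C57BL6 small intestinal cells that had been cultured as organoids for 7 days and instilled into the colon of C57BL6 recipients, and it was taken 4 weeks after transplantation. The control was colonic epithelium of a normal C57BL6 mouse. Both epithelia were laser-microdissected, some 30 sections of a specimen being combined, and the graft and the colon specimen with the best RNA integrity went onto 1 array each. With 1 array per group there is no replicate error, so values and counts describe these 2 samples and no test was made. No ungrafted small intestine was analysed here, so the tissue of origin and the grafting cannot be told apart.

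The labels were checked against defining markers. All 5 small intestinal enterocyte markers were higher in the graft, with Fabp1 at 10.38 in the graft, against 4.71 in the control colon, and all 5 colonocyte markers were lower, with Car1 at 4.51 in the graft, against 11.74 in the control colon. Of 8 general epithelial genes, 6 were higher in the graft (median difference 0.38, summed level 13.65 in the graft, against 13.34 in the control colon on the log2 scale). Of 12 fibroblast and smooth muscle genes, 11 were lower in the graft (median -0.33, summed level 9.66 in the graft, against 10.10 in the control colon, single genes between 4.85 and 7.37 in the graft and between 4.90 and 7.99 in the colon). Of 8 leukocyte and 5 endothelial genes, 2 and 1 reached the median level, with median differences of 0.16 and -0.067. The part of these genes in the values below was not tested. Fewer mitochondria-rich cells and less RNA per cell cannot be told apart in such bulk samples.

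The genes of the respiratory chain and ATP synthase were at similar levels in the graft and in the colon. The median difference, graft minus colon on the log2 scale, was -0.0058 over the 89 members and 0 over all 17305 genes. The member median was 0.022 with quantile normalization and 0.045 after centring on the median gene, so it has no settled direction. Members at least 2-fold higher in the graft numbered 0, against 1.93% of all genes, and members at least 2-fold lower also numbered 0, against 3.09%. At a difference of 0.5, which is 1.41-fold, 7 members were higher in the graft (6.02% of all genes) and 5 were lower (10.3% of all genes). At 1.5-fold, 5 were higher (4.8% of all genes) and 3 lower (8.17% of all genes). Ndufs8, at 0.95, came closest to 2-fold among the members above the median level on both arrays. The remaining 77 members, 86.5%, lay within 0.5, as did 83.7% of all genes, and 55 lay within 0.25. All genes include many dim ones. In the brightest 25% of genes, 85.9% of the 78 members there and 68.8% of all genes there lay within 0.5.

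By direction alone, 39 members were higher in the graft (43.5% of all genes), 47 were lower (43.9% of all genes) and 3 had equal values on both arrays (12.6% of all genes). This balance turned with the scaling: 49 were higher and 40 lower with quantile normalization (46.4% and 53.6% of all genes), and 48 were higher and 41 lower after centring on the median gene (63.2% and 36.8% of all genes). Most members are bright, and differences spread less among dim genes, with an SD of 0.55 over all genes, so the bright genes were also considered alone. The 78 members in the brightest 25% of genes had a median of -0.016, an SD of 0.33 and a range from -0.69 to 0.95. All 4327 genes in that range had a median of -0.099 and an SD of 0.86, with 3.81% at least 2-fold higher and 7.53% at least 2-fold lower in the graft.

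**Figure D1:**
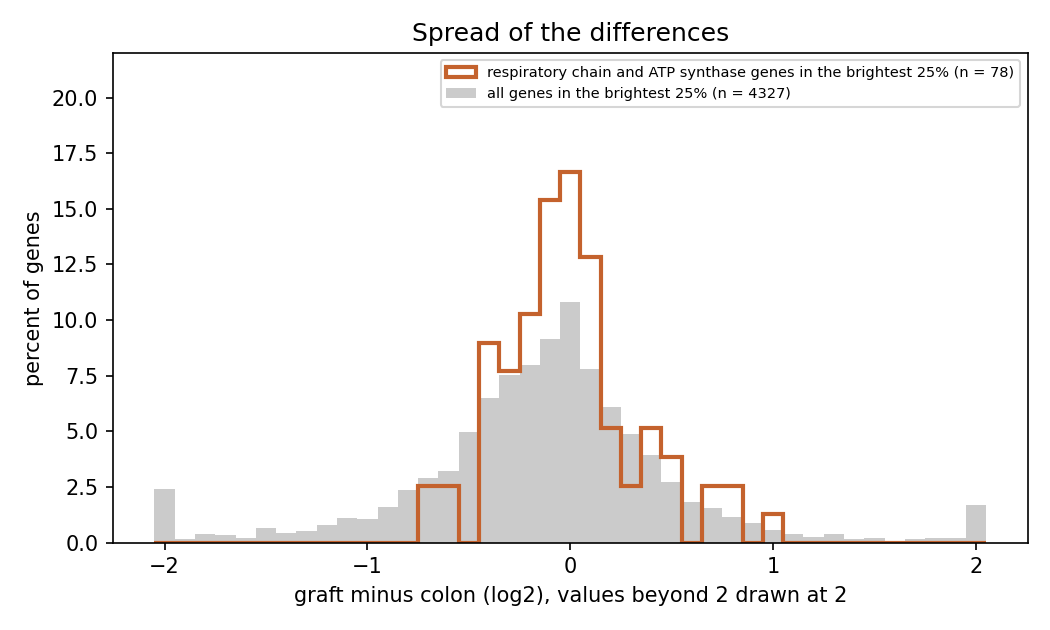
Distribution of the difference between graft and colon (log2, x axis) as a percentage of genes (y axis), for the 78 respiratory chain and ATP synthase genes in the brightest 25% (outline) and for all 4327 genes in that range (filled). The outline stays between -0.69 and 0.95, and the filled distribution extends beyond 2 in both directions.

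The only measure of technical error is the agreement between probe sets of 1 gene. For the 17 members with several probe sets, the difference varied between the 2 brightest with an SD of 0.16, and all probe sets had the same sign for 13 of them. Over all 554 genes whose second-brightest probe set reached the median level, that SD was 0.46, and this larger value is used below. The median size of the gap was 0.15 over the 554 genes and 0.11 over the 17 members. A limit of 0.46 is thus wider than the gap of most genes. Probe sets can share probes, and an RNA's processed pseudogenes can bind the same probes, so both SDs may be too small, and they leave out variation between animals. Beyond 0.46 lay 8 members higher in the graft (6.83% of all genes) and 5 lower (11.5% of all genes). Beyond 0.91, which is 2 such SDs, lay Ndufs8 on the higher side (2.2% of all genes), and on the lower side Cox6b2 (3.69% of all genes), whose graft level was below the median of all genes.

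**Figure D2:**
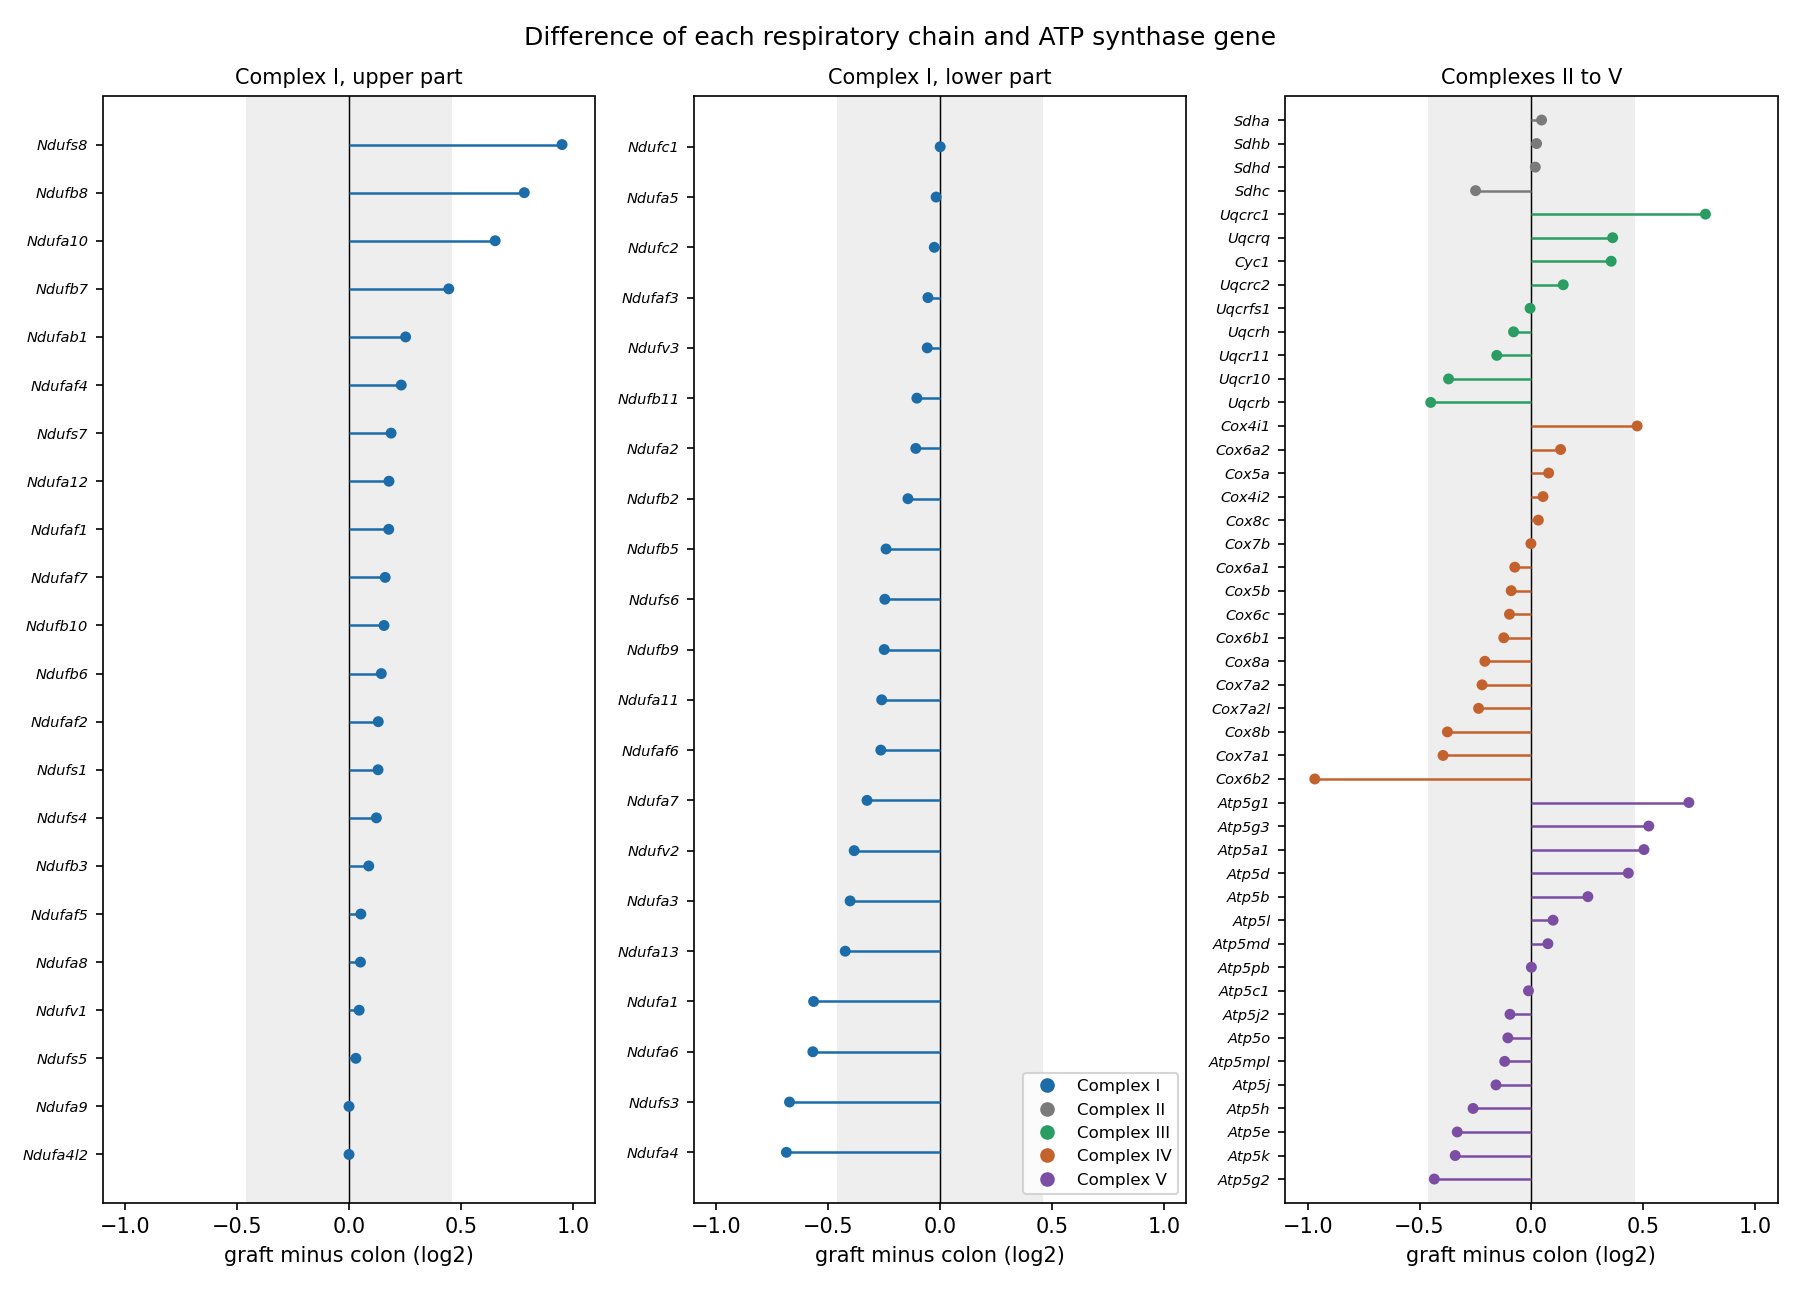
Difference between graft and colon (log2, x axis) for each of the 89 genes, sorted within each complex (y axis), with complex I split over the left and middle panels. Grey bands show the SD between probe sets, 0.46. Points to the right are higher in the graft, and every complex has genes on both sides of 0.

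Complex I, the NADH dehydrogenase, had subunits that differed in each direction. Its 43 genes had a median difference of 0, with 20 higher in the graft (43.5% of all genes) and 21 lower (43.9% of all genes). That median was between -0.0091 and 0.073 under the other ways of processing, so it has no settled direction. Differences of at least 0.5 were seen for 3 genes higher (6.02% of all genes) and 4 lower (10.3% of all genes). The other 36 genes of complex I, 83.7%, lay within 0.5, as did 83.7% of all genes.

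The 6 measured core subunits are conserved from bacteria. Among them, Ndufs8 stood at 8.76 in the graft, against 7.81 in the control colon, a 1.93-fold difference. Ndufs8 holds iron-sulfur clusters close to the site of ubiquinone. Ndufs3, its neighbour in the same part of the peripheral arm, went the other way, at 8.09 in the graft, against 8.76 in the control colon. These 2 were the highest and the lowest of the 6, so the gap between them was the largest of the group. It was 1.63, more than 2 SDs between probe sets, and 1.25 with the other probe set of Ndufs3. That limit does not allow for a pair picked as the extremes. The second probe set of Ndufs3 had a difference of -0.30, against -0.67 for the brightest. Ndufv1, which binds NADH and the flavin, had a difference of 0.045. The iron-sulfur subunits Ndufs1 and Ndufs7 had differences of 0.13 and 0.19, and Ndufv2 of -0.38. The median of the 6 was 0.088.

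The 30 accessory subunits had a median of -0.022, and again both directions occurred. Ndufb8, a subunit of the membrane arm, was at 10.30 in the graft, against 9.51 in the control colon, a difference of 0.78. Ndufa10, a subunit with a nucleoside kinase fold, was at 9.17 in the graft, against 8.52 in the control colon, a difference of 0.65. These were the accessory subunits higher by at least 0.5, and Ndufb7 followed at 0.45.

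Lower in the graft by at least 0.5 were 3 small subunits. Ndufa4 was at 9.86 in the graft, against 10.55 in the control colon, a difference of -0.69. Despite its name, the protein has been found as a subunit of complex IV in mammals. With it and its relative Ndufa4l2 counted in complex IV, the medians of both complexes were as given here. Ndufa6, a member of the LYR family that binds the mitochondrial acyl carrier protein, was at 9.09 in the graft, against 9.66 in the control colon. Ndufa1, an X-linked membrane subunit, was at 9.90 in the graft, against 10.47 in the control colon. All 3 were 1.48-fold to 1.61-fold lower.

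The accessory subunits can be set out by symbol group. The 15 Ndufa genes, Ndufab1 among them, had a median of -0.11 with 4 higher, 9 lower and 2 equal. The 9 Ndufb genes, which code for membrane arm subunits, had a median of 0.088 with 5 higher and 4 lower. Over all genes, 43.5% were higher, 43.9% lower and 12.6% equal. Of the 4327 genes in the brightest 25%, 1689 were higher and 2532 lower. Ndufa13, also known as Grim19, and Ndufa3 had differences of -0.42 and -0.40. Ndufa7 and Ndufa11 followed at -0.33 and -0.26. Ndufab1, the mitochondrial acyl carrier protein, had a difference of 0.25. Ndufa12, Ndufa8, Ndufa5 and Ndufa2 lay between -0.11 and 0.18. Ndufa9 had the same value, 7.20, on both arrays.

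Among the Ndufb genes besides Ndufb8 and Ndufb7, Ndufb10, Ndufb6 and Ndufb3 had differences of 0.16, 0.14 and 0.088. Ndufb11, Ndufb2, Ndufb5 and Ndufb9 had differences of -0.10, -0.14, -0.24 and -0.25. The 2 probe sets of Ndufb11 had differences of -0.10 and -0.43. Ndufc1 and Ndufc2 were within 0.026 of equality. The accessory Ndufs4, whose loss in mice causes a Leigh-like disease, had a difference of 0.12, Ndufs5 of 0.031, Ndufs6 of -0.25 and Ndufv3 of -0.058. Ndufa4l2, a hypoxia-induced relative of Ndufa4, was near the lower end of both arrays at 4.81.

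Assembly factors bring the subunits of complex I together and are not part of the finished enzyme. The 7 measured Ndufaf genes had a median of 0.13, and all lay within 0.27 of 0. Ndufaf4, Ndufaf1, Ndufaf7, Ndufaf2 and Ndufaf5 had differences of 0.23, 0.18, 0.16, 0.13 and 0.053. Ndufaf3 and Ndufaf6 had differences of -0.055 and -0.27. The graft level of Ndufaf6, 5.28, was below the median of all genes, so the size of its difference is not determined. These 7 genes covered a narrower range than the 6 core subunits, which spread from -0.67 to 0.95.

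Complex II, succinate dehydrogenase, is shared with the citric acid cycle and had nearly the same levels in both samples. Sdha, the flavoprotein that oxidises succinate, was at 8.98 in the graft, against 8.93 in the control colon. Sdhb, the iron-sulfur subunit, was at 8.95 in the graft, against 8.93 in the control colon. Both differences were below 0.05. Sdhd, a membrane anchor, was at 8.56 in the graft, against 8.55 in the control colon. Sdhc, the other anchor, was at 9.04 in the graft, against 9.28 in the control colon, a difference of -0.25. The median of the 4 genes was 0.020.

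Complex III, the cytochrome bc1 complex, had higher values in the graft for 3 of its 4 larger subunits and lower values for 4 of its 5 small ones. Over all genes, 43.5% were higher in the graft and 43.9% lower. Only Uqcrc1 lay beyond the SD of 0.46 between probe sets. With quantile normalization, the differences of Uqcrfs1 and Uqcrh turned to 0.036 and 0.010, so these counts depend on the scaling. Uqcrc1, a core protein on the matrix side, was at 8.77 in the graft, against 7.99 in the control colon, a 1.71-fold difference. Uqcrc2, its partner, was at 9.33 in the graft, against 9.19 in the control colon. Cyc1, cytochrome c1, which hands electrons to cytochrome c, was at 9.65 in the graft, against 9.29 in the control colon, a difference of 0.36. These 3 were higher in the graft by 0.14 to 0.78, while the Rieske protein Uqcrfs1 was at 8.93 in the graft, against 8.94 in the control colon.

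Of the 5 small subunits of complex III, 4 were lower in the graft. Uqcrb, a ubiquinone-binding subunit, was at 9.36 in the graft, against 9.81 in the control colon, and its 3 probe sets had differences between -0.45 and -0.40. Uqcr10 was at 10.23 in the graft, against 10.60 in the control colon, a difference of -0.37. Uqcr11 was at 9.80 in the graft, against 9.96 in the control colon, and its dimmer probe set had a difference of 0.018. Uqcrh, the acidic hinge protein that contacts cytochrome c1, was at 10.82 in the graft, against 10.90 in the control colon. Uqcrq was the exception, at 9.48 in the graft, against 9.11 in the control colon. The gap between Uqcrc1 and Uqcrb, the highest and the lowest of the 9 genes, was 1.23. The median of all 9 genes was -0.0058 and lay between -0.043 and 0.045 under the other ways of processing.

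Complex IV, cytochrome c oxidase, was slightly lower in the graft by its median, -0.094 over 16 genes. Of these, 5 were higher (43.5% of all genes) and 11 lower (43.9% of all genes). Of the 4327 genes in the brightest 25%, 1689 were higher and 2532 lower. With genes below the median level left out, the complex IV median was -0.11 over 12 genes. The median stayed below 0 under every alternative tried, from -0.11 to -0.015, and the median of all genes in the brightest 25% was -0.099. Cox4i1, the ubiquitous form of the subunit 4 through which ATP slows the enzyme, was the main exception, at 10.39 in the graft, against 9.91 in the control colon, a difference of 0.47. Cox5a had a difference of 0.077. The bright general subunits Cox7b, Cox6a1, Cox5b, Cox6c and Cox6b1 lay between -0.0022 and -0.12. Cox8a, Cox7a2 and the supercomplex factor Cox7a2l followed at -0.21, -0.22 and -0.24.

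Several complex IV subunits exist as a general form and as a form known from muscle, lung, testis or other restricted sites. Cox4i2, the lung and hypoxia form, was at 5.10 in the graft, against 5.05 in the control colon, a difference of 0.052. Cox6a2, the heart and skeletal muscle form, was at 5.43 in the graft, against 5.30 in the control colon, against the general Cox6a1 at 11.74 in the graft, against 11.81 in the control colon. Both restricted forms had levels below the median of all genes on both arrays. In the Cox8 family, Cox8a was at 10.03 in the graft, against 10.23 in the control colon. Cox8b, a muscle and brown fat form, was at 4.64 in the graft, against 5.01 in the control colon, and the testis form Cox8c was at 4.60 in the graft, against 4.56 in the control colon. Values this low cannot be separated from background, since no detection call comes with the table, so differences among them are not determined.

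A pair of restricted forms were above the median level on at least 1 array. Cox7a1, the heart and skeletal muscle form, was at 9.11 in the graft, against 9.50 in the control colon, a difference of -0.39, and its general counterpart Cox7a2 was at 9.74 in the graft, against 9.96 in the control colon. In the same samples 11 of the 12 fibroblast and smooth muscle genes were also lower in the graft, Acta2 by 0.60 and Myh11 by 0.37, and their part in the Cox7a1 value was not tested. The 10 genes of skeletal and cardiac muscle had a median difference of 0, and 1 of them reached the median level. Cox6b2, known as a testis form, was at 5.48 in the graft, against 6.44 in the control colon, whereas the general Cox6b1 was at 11.93 in the graft, against 12.05 in the control colon. The graft level of Cox6b2 is in the range that cannot be separated from background, so the size of its difference, -0.97 as listed, is not determined.

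**Figure D3:**
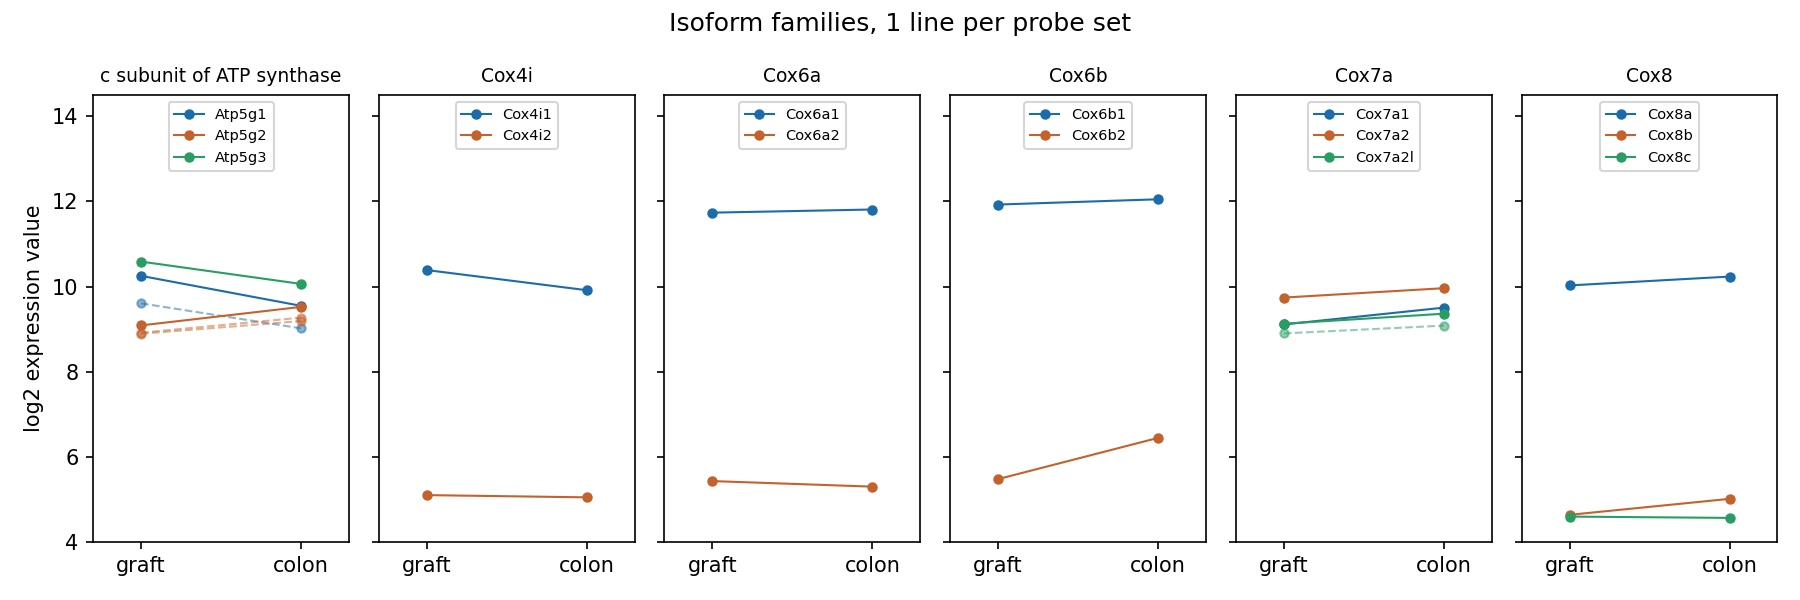
Log2 expression value (y axis) in the graft and in the colon (x axis) for the c subunit genes of ATP synthase and the isoform families of complex IV, 1 line per probe set, with the brightest solid and others dashed. Atp5g1 and Atp5g3 slope down towards the colon while all 3 Atp5g2 lines slope up, and Cox6b2 and Cox7a1 are lower in the graft than in the colon.

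ATP synthase had a median difference of -0.013 over 17 genes. Of these, 7 were higher in the graft (43.5% of all genes), 9 lower (43.9%) and 1 equal (12.6%). The median was between -0.013 and 0.038 under the other ways of processing. As in complex III, single parts of the enzyme differed in direction. Most of the catalytic head was higher in the graft, the c ring was divided, and the peripheral stalk and most of the small membrane subunits were lower or near 0. Only Atp5g1, Atp5g3 and Atp5a1 lay beyond the SD of 0.46 between probe sets, so the direction of each part is not settled.

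In the catalytic F1 head, the alpha subunit gene Atp5a1 was at 10.06 in the graft, against 9.56 in the control colon, a difference of 0.50. The delta subunit Atp5d was at 9.80 in the graft, against 9.36 in the control colon, and the catalytic beta subunit Atp5b was at 9.82 in the graft, against 9.57 in the control colon. These 3 head subunits were higher in the graft by 0.25 to 0.50. The gamma subunit Atp5c1, the rotating shaft, was at 10.18 in the graft, against 10.19 in the control colon. The small epsilon subunit Atp5e was at 10.84 in the graft, against 11.18 in the control colon, a difference of -0.33.

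The ring of c subunits, which turns as protons pass, is encoded by 3 genes whose mature proteins are identical and whose import signals differ. Atp5g1 was at 10.25 in the graft, against 9.55 in the control colon, a difference of 0.70, and its second probe set had one of 0.59. Atp5g3 was at 10.59 in the graft, against 10.06 in the control colon, a difference of 0.52. Atp5g2 went the other way, at 9.09 in the graft, against 9.52 in the control colon, and its 3 probe sets had differences between -0.43 and -0.30. Genes for 1 and the same mature protein differed in opposite directions. The gap between Atp5g1 and Atp5g2 was 1.14, and that between Atp5g3 and Atp5g2 was 0.96, against 0.91 for 2 SDs between probe sets. Atp5g1 and Atp5g2 were also the highest and the lowest of all ATP synthase genes, which that limit does not allow for. Read from other probe sets these gaps were as small as 0.88 and 0.82, below 2 SDs, and from the mean of each gene's probe sets they were 1.01 and 0.89.

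The upstream sequences of these 3 genes are shown because their differences were opposed although they make the same protein. Each is the 250 bases before the annotated start, read 5′ to 3′ on the gene's minus strand from RefSeq (GRCm38.p6), at chr11:96075632-96075881 for Atp5g1, chr15:102671048-102671297 for Atp5g2 and chr2:73911327-73911576 for Atp5g3. Capitals mark the motifs searched on both strands: GCATGCGC for the nuclear respiratory factor NRF1, TCAAGGTCA for estrogen-related receptors (ERR), CCGGAAG for ETS factors such as GABP, AAGATGGCG for YY1, the CCAAT box CCAAT and the E-box CACGTG.
Atp5g1: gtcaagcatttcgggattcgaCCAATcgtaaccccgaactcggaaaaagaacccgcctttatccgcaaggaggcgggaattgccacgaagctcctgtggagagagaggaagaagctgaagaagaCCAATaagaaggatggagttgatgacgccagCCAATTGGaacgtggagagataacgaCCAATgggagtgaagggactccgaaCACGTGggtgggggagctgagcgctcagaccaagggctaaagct
Atp5g2: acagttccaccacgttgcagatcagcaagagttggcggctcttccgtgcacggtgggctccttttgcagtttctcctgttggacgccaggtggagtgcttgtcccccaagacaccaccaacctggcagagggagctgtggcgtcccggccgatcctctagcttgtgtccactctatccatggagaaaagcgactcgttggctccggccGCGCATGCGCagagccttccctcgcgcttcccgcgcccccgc
Atp5g3: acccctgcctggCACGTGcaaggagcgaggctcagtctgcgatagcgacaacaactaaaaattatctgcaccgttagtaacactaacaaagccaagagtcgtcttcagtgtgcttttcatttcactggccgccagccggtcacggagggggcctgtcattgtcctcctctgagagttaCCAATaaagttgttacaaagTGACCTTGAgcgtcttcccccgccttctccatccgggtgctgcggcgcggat

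The 3 windows shared few motifs. The Atp5g2 window held the NRF1 letters on both strands, overlapping from base -42 to base -33 counted back from the start, and none of the other motifs. The Atp5g3 window held the ERR letters on the opposite strand from base -52 to base -44, with 1 CCAAT box and 1 E-box. The Atp5g1 window held 5 CCAAT boxes, of which 2 overlap on opposite strands, and 1 E-box.

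Upstream windows of the same length were listed for 72 of the 89 members and for 27025 genes in all, and a gene was counted if any of its windows held the letters. The NRF1 letters were found for 9 of the 72 members (12.5%) and for 2.56% of all genes. These 9 were Ndufaf4, Ndufa8, Ndufa11, Ndufa6, Sdhb, Cox6a1, Atp5l, Atp5k and Atp5g2. The ETS letters were found for 13 members (18.1%) and for 7.83% of all genes. The ERR letters were found for 1 member, Atp5g3 (1.39%), and for 0.422% of all genes, and the YY1 letters for 1 member, Atp5j (1.39%), and for 0.71% of all genes. The CCAAT box was found for 31 members (43.1%) and for 37.5% of all genes, and the E-box for 6 members (8.33%) and for 6.86%. Of the 6 matched members higher in the graft by 0.5, 3 held a CCAAT box, 2 an E-box, 1 the ERR letters and 0 the NRF1, ETS or YY1 letters. Of the 5 lower by 0.5, 2 held a CCAAT box, 1 (Ndufa6) the NRF1 letters, 1 (Ndufs3) the ETS letters and 0 the others. A match to these letters describes the window and does not show binding.

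For comparison, the windows of Ndufs8, the member with the highest difference, and of Ndufa4, a member lower in the graft by 0.69, lie at chr19:3912775-3913024 and chr6:11907451-11907700, both on the minus strand. Ndufs8 held 3 CCAAT boxes, in capitals, and Ndufa4 held none of the motifs.
Ndufs8: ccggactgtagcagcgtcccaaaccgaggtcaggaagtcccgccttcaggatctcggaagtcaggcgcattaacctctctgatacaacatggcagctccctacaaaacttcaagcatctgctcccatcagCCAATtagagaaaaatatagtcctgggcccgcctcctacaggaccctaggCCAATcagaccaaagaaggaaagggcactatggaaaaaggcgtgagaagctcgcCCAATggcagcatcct
Ndufa4: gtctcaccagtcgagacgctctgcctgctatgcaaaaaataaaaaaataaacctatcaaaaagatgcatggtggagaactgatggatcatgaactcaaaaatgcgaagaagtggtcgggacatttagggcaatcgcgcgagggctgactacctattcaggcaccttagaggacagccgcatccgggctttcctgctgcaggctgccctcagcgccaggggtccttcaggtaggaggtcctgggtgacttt

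The peripheral stalk, which holds the head still against the turning ring, had a median of -0.13 over 4 genes. Atp5pb, subunit b, had the same value of 9.73 on both arrays, and its second probe set had a difference of 0.085. Atp5o, the protein that confers oligomycin sensitivity, had a difference of -0.11, Atp5j of -0.16 and Atp5h, subunit d, of -0.26. The 3 probe sets of Atp5h agreed closely, between -0.26 and -0.24. Among the 5 small membrane subunits, Atp5k, subunit e, which takes part in dimer formation, was at 10.58 in the graft, against 10.92 in the control colon, a difference of -0.34. Atp5mpl, Atp5j2, Atp5md and Atp5l had differences of -0.12, -0.096, 0.074 and 0.097. The 6 probe sets of Atp5l lay between -0.026 and 0.097.

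**Figure D4:**
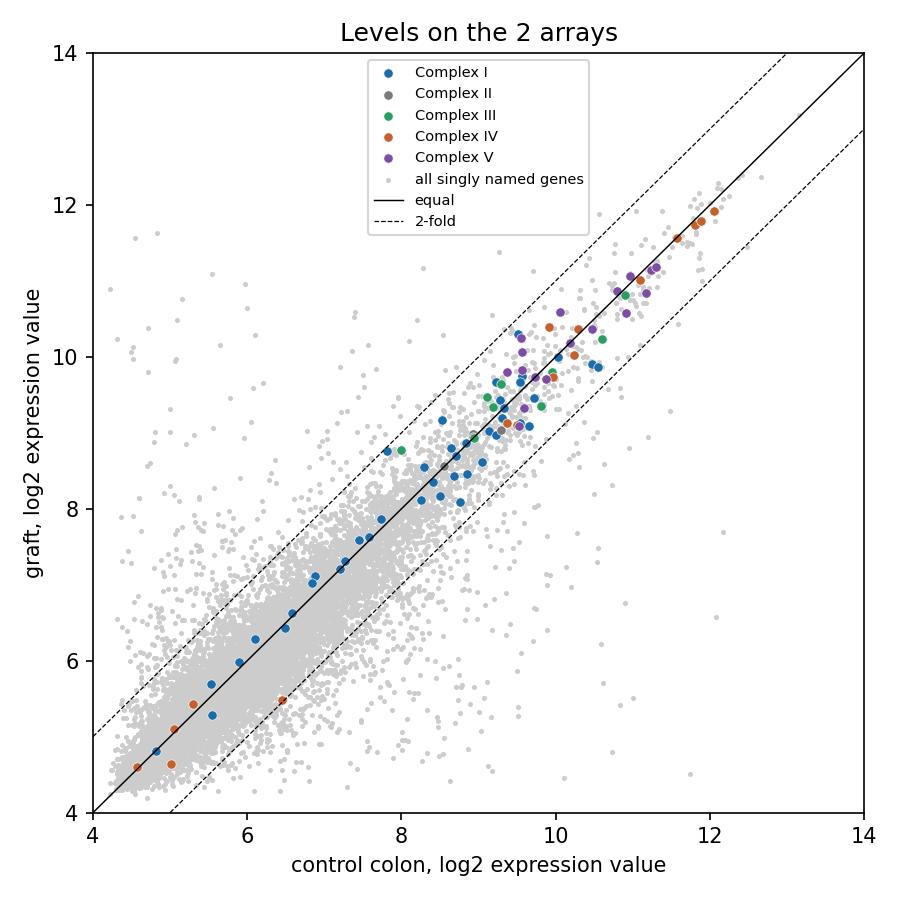
Log2 expression value in the graft (y axis) against the control colon (x axis) for all 17305 singly named genes (grey) and the 89 respiratory chain and ATP synthase genes (coloured by complex). The solid line marks equal values and the dashed lines 2-fold. All 89 coloured points lie between the dashed lines.

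Position on the X chromosome was shared by 3 members. Ndufa1, Ndufb11 and Cox7b had differences of -0.57, -0.10 and -0.0022.

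The genes that serve the chain from outside these families were described in the same way, from lists chosen with earlier results of these data known. For the counts in these lists, 43.5% of all genes were higher in the graft and 43.9% lower. At least 2-fold higher were 1.93% of all genes, and at least 2-fold lower 3.09%. In the brightest 25% of genes these 2-fold shares were 3.81% and 7.53%. Assembly factors of complexes II to V had a median difference of -0.032 over 31 genes, with 0 at least 2-fold higher and 2 at least 2-fold lower. Uqcc2, an assembly factor of complex III, was at 8.46 in the graft, against 9.53 in the control colon, a 2.09-fold difference. Sdhaf4, which helps to mature the flavoprotein of complex II, was at 6.43 in the graft, against 7.44 in the control colon, 2.01-fold lower in the graft. Lrpprc, which stabilises mitochondrial messenger RNAs, was at 7.90 in the graft, against 6.97 in the control colon. Coa4 had a difference of -0.86. The 8 other assembly factors of complex I had a median of -0.093 (Tmem70 is in both of these lists), with 2 higher and 6 lower in the graft, and Tmem126b was the most distant from 0 at -0.77.

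Around cytochrome c and nucleotide exchange, 8 genes had a median of 0.14, and 1 was at least 2-fold higher. The median was -0.0058 when all probe sets of a gene were averaged, so it has no settled direction. Slc25a4, the adenine nucleotide carrier typical of heart and muscle, was at 7.50 in the graft, against 6.05 in the control colon, a 2.74-fold difference. The porin Vdac2 had a difference of 0.46, the phosphate carrier Slc25a3 of -0.42 and cytochrome c, Cycs, of 0.39. Coenzyme Q synthesis had a median of -0.15 over 12 genes, with 3 higher and 8 lower in the graft, and Pdss2, Coq3, Coq10b and Coq5 had differences of -0.76, 0.45, -0.39 and -0.38.

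The citric acid cycle and pyruvate dehydrogenase had a median of 0.16 over 16 genes, with 11 higher and 5 lower in the graft. Mdh2, mitochondrial malate dehydrogenase, was at 10.55 in the graft, against 9.17 in the control colon, a 2.60-fold difference, and was the only gene of that list past 2-fold. Dlst, a subunit of the oxoglutarate dehydrogenase complex, had a difference of 0.85, Suclg2, of the GTP-linked succinyl-CoA ligase, of -0.76, and Pdhb, of pyruvate dehydrogenase, of 0.59. Glycolysis had a median of 0.14 over 13 genes, with 9 higher and 4 lower. Hk2, an inducible hexokinase, had a difference of -0.93, while Pgam1, Pgk1 and Ldha had differences of 0.58, 0.54 and 0.51.

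Among 14 regulators of mitochondrial biogenesis, 7 were higher and 7 lower in the graft, with a median of -0.0073. Ppargc1a, the coactivator that raises respiratory gene expression in many tissues, was at 7.58 in the graft, against 8.64 in the control colon, 2.07-fold lower in the graft. Tfb1m, a methyltransferase of mitochondrial ribosomal RNA, was at 5.07 in the graft, against 5.98 in the control colon. That graft level is in the range that cannot be separated from background. The size of the Tfb1m difference, -0.91 as listed, is thus not determined. Yy1 and Gabpa, an ETS factor, had differences of -0.57 and -0.37. Esrra and Nrf1, whose motifs are described above, were within 0.28 of equality. Mitochondrial ribosomal proteins had a median of -0.018 over 77 genes, or 0.041 with quantile normalization, with 0 at least 2-fold higher and 1 at least 2-fold lower. That gene was Mrps6, at 6.78 in the graft, against 8.48 in the control colon. Mrpl41, Mrpl14 and Mrpl48 had differences of -0.89, -0.87 and -0.79. Cytosolic ribosomal proteins had a median of -0.19 over 53 genes, of which 43 were lower in the graft and 0 by 2-fold, with Rps4l, Rpl14, Rpl30 and Rpl10 at -0.94, -0.75, 0.56 and -0.51.

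**Figure D5:**
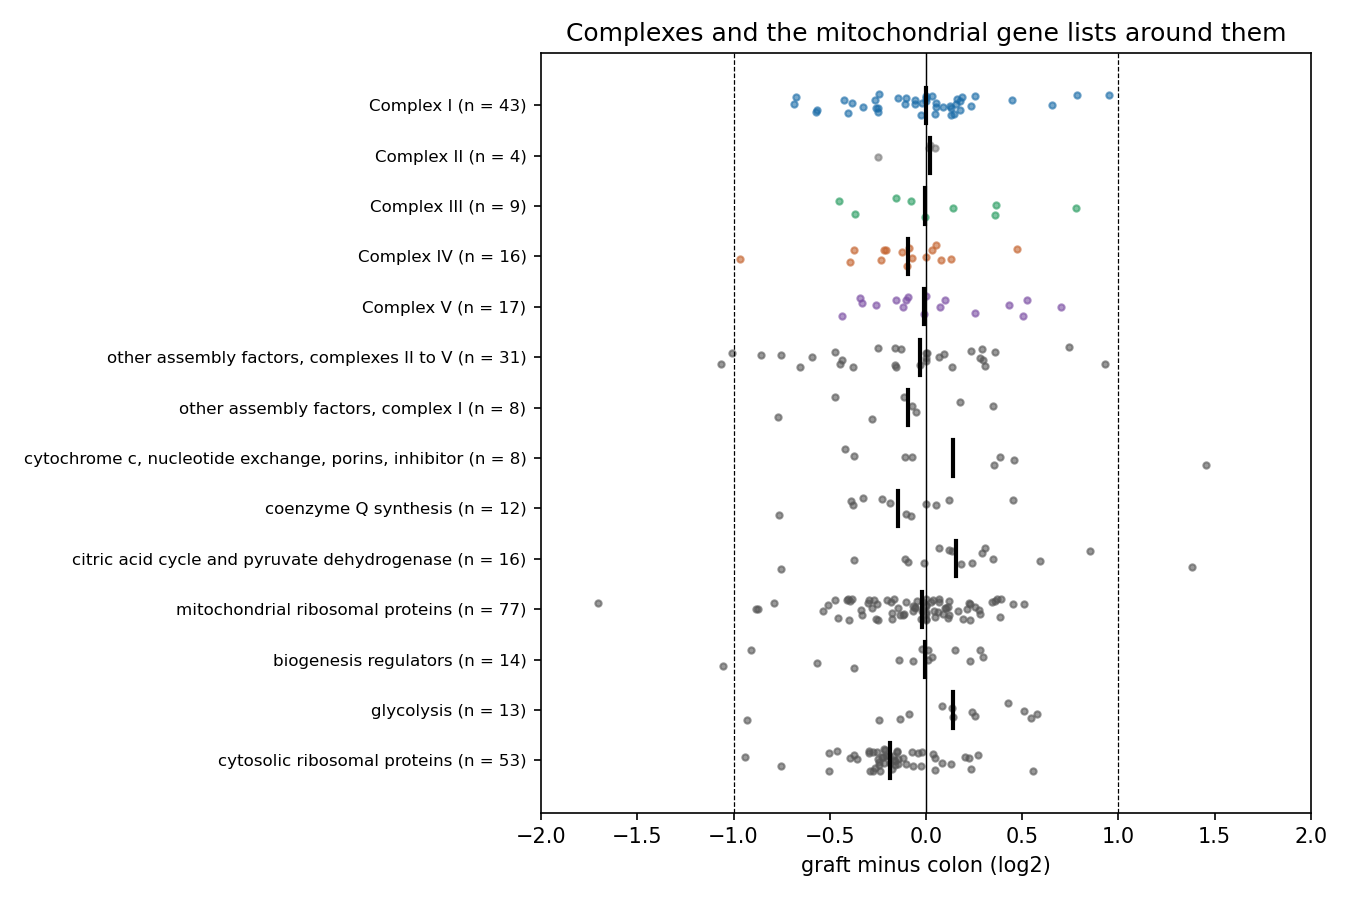
Difference between graft and colon (log2, x axis) for the 5 complexes and the lists around them (y axis), with 1 point per gene and the median as a black bar. Dashed lines mark 2-fold. The median bars lie between -0.19 and 0.16, and the genes past 2-fold belong to the lists outside the 5 complexes.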

How the data were processed

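Levels were measured on 2 single-channel arrays, 1 of the graft and 1 of the control colon. The deposited values are log2 expression values, 1 per probe set and array, and the scale was read from their range. The software, normalization and genome build behind them were not given in the sources used here. Per the labels' protocols, 4.33 ng of RNA was amplified before labelling, and the number of arrays limits the precision.

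From these values, 18904 of 24074 probe sets with exactly 1 gene symbol in the platform annotation were kept, and each gene was read from its brightest probe set by the mean over both arrays, which gave 17305 genes. Differences are graft minus colon, with no filter and no further normalization. No test was possible with 1 array per group. The members and all 17 lists were chosen with earlier results of these data known. Named by rule were members differing by at least 0.5, all of complexes II and III, the 3 largest differences each way per complex, the isoform families and up to 4 genes per other list. The other members are also given, with their differences or ranges. Promoter motifs were chosen with results known, and those for NRF1 and YY1 were shortened after longer strings, which matched fewer members, had been counted. The counting steps were tested on simulated data. Alternatives were probe set averaging, quantile normalization, centring, level filters and other member sets. Python 3.11.15, pandas 2.3.3 and numpy 2.4.6 were used.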

Additional observations from a re-analysis of the deposited data

How the results depend on the processing

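Every alternative is a value without a test, and each was read against the SD between probe sets divided by the square root of the number of genes, or, for counts, against 1.5 times. Of 160 alternative values, 151 stayed within these limits and 9 moved beyond them. Among the medians 9 values changed sign, mostly between values close to 0. The member median was 0.022 with quantile normalization and 0.045 after centring on the median gene, that of complex III 0.036 and 0.045, and that of complex V 0.038 after centring and 0.0045 over single probe sets. The electron carrier and nucleotide exchange median was -0.0058 with probe sets averaged. The members that were higher and lower numbered 49 and 40 with quantile normalization and 48 and 41 after centring. The count of members at least 2-fold higher in the graft was 1 with quantile normalization and also 1 after centring on the median gene, which moved all differences by 0.051. This was Ndufs8, at 1.03 and 1.003. Quantile normalization moved the median of complex I to 0.073 and that of mitochondrial ribosomal proteins to 0.041. At 1.5-fold in place of 2-fold, 5 members were higher in the graft (4.8% of all genes) and 3 were lower (8.17% of all genes). With genes below the median level left out, the leukocyte list had a median of 0.33 over 2 genes and the endothelial list 1.23 over 1 gene. Of the 60 members with a difference of at least 0.1, all 60 kept their direction under probe set averaging, quantile normalization and centring, and of all 89 members 12 did not. Centring by 0.051 could not turn a difference of 0.1, and averaging could not change the 72 members with 1 probe set. The count of 60 was thus largely fixed in advance. No paired analysis was possible because each group has 1 array, and for the same reason no array could be left out. No array is a replicate, so variation between animals and the error of amplification are not in any value.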

Other observations

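Probe sets annotated to several symbols were left out of the counts, and 6 of them carry a symbol of these families. A pair of probe sets for Ndufb4 and its copy Ndufb4b, a membrane arm subunit of complex I, were at 8.97 and 9.003 in the graft and at 9.76 and 9.64 in the colon. Their differences were -0.80 and -0.64, and the first is below that of every counted complex I gene, the lowest being Ndufa4 at -0.69. Both symbols of this pair meet the rule, so it entered no count and no alternative. The 3 probe sets for Cox7c and the predicted gene Gm12338 had differences between 0.042 and 0.058. The probe set for Ndufs5 and its pseudogene had a difference of 0.12, and the singly named probe set of Ndufs5 had one of 0.031.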
